A study of Homo sapiens with 9 samples.

Results

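The dual-specificity phosphatases of MAP kinases were followed in PANC-1, a standard cell line derived from a human pancreatic carcinoma. The 10 members were DUSP1, DUSP2, DUSP4, DUSP5, DUSP6, DUSP7, DUSP8, DUSP10, DUSP14 and DUSP16, taken as the GENCODE entries with these symbols among 57820 GENCODE features and 112171 features in all. The cells had been kept under hypoxia for 12 h in medium that held rakicidin A at 42 nM, BE-43547A1 at 41 nM or, as the control, 0.04% DMSO, and 3 libraries of total RNA were made per group. Rakicidin A is a cyclic lipopeptide made by bacteria, and DMSO is the solvent of the control medium. The doses were not identical, the labels leave the DMSO content of the compound media unstated, and all cells were hypoxic, with no group in normal oxygen. The labels do not state that replicate libraries are separate cultures; p-values therefore reflect variation among the libraries sequenced, which may be technical.

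MAP kinases (ERK, JNK and p38) are switched on when a kinase places phosphates on a threonine and a tyrosine of their activation loop, and dual-specificity phosphatases remove both. Many of these phosphatases are themselves transcribed after growth signals or stress, and so limit the signal that induced them. The inducible nuclear enzymes DUSP1, DUSP2 and DUSP4 act on several MAP kinases, DUSP5 in the nucleus and DUSP6 and DUSP7 in the cytoplasm act mainly on ERK, and DUSP8, DUSP10 and DUSP16 act mainly on JNK and p38. DUSP14 is a small atypical member that lacks the domain with which the others bind MAP kinases.

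The libraries held 26203326 to 34870860 counts on features with rakicidin A, 39807220 to 45048999 with BE-43547A1 and 27696394 to 30596594 with DMSO. Levels are given as CPM, the counts of a gene scaled by TMM to a common library size, and a change as a log2 fold change ± SE from edgeR's quasi-likelihood test, with a Benjamini-Hochberg adjusted p over 22353 features and a threshold of 0.05. CPM is a share of the RNA sequenced from a whole culture, so a change in each cell and a change in the number of cells that hold the transcript cannot be told apart. DMSO replicate 3 differed more from the other DMSO libraries (chi-square per feature of 18.07 and 19.96) than other libraries of a group did from each other (3.07 to 9.40). Of the markers used to check the line, all 6 epithelial genes were measured (summed CPM of 2428 to 2544 after rakicidin A, 3375 to 3638 after BE-43547A1 and 2847 to 3049 with DMSO). KRT8, KRT18 and KRT19 made up nearly all of this sum, while over all groups EPCAM lay at 13.9 to 19.9 CPM and CDH1 at 4.51 to 8.28. The line is labelled as pancreas, and the 6 acinar and islet genes were at or near 0 (summed CPM of at most 0.0859). Summed leukocyte markers lay at 1.66 to 2.06 CPM after rakicidin A, 2.77 to 3.46 after BE-43547A1 and 1.53 to 1.85 with DMSO, and stromal and endothelial markers at 4.003 to 5.58 CPM after rakicidin A, 4.81 to 6.48 after BE-43547A1 and 6.85 to 10.8 with DMSO. ITGAM made up most of the leukocyte sum, and the stromal and endothelial sum covers the 5 of 6 chosen genes that were matched. The part of these leukocyte, stromal and endothelial genes in the results was not tested.

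Most of the 10 members, which were chosen with earlier results of these data known, were higher with either compound. DUSP9, an ERK phosphatase of the same family but not a member here, fell with both. Its log2 fold change was -0.70 after rakicidin A and -0.55 after BE-43547A1. After rakicidin A, 8 members rose and 1, DUSP2, fell relative to DMSO, and after BE-43547A1 again 8 rose and DUSP2 fell. DUSP4 had too few counts to be tested, so these counts cover 9 of the 10 members. Among all features tested, 31.9% rose and 32.7% fell after rakicidin A (64.7% in either direction), and 35.3% rose and 35.1% fell after BE-43547A1 (70.4%), so passing the test was common in these data. All 9 tested members passed with a log2 fold change of 1 or more in size after rakicidin A, 8 upward and 1 downward, where 14% of all features rose and 13.8% fell that far. With total counts alone as the scaling, 7 of 9 did (6 upward, with DUSP6 at 0.85 and DUSP7 at 0.76), where 9.29% of all features rose and 22.2% fell that far. After BE-43547A1, 7 of 9 did, 6 upward and 1 downward, with 17.5% of all features that far up and 14.1% that far down. Scaled by total counts alone 6 of 9 did, DUSP14 then being at 0.82, and 6 of 9 did without DMSO replicate 1 or without BE-43547A1 replicate 3, with DUSP2 above -1 each time. The median log2 fold change of the 9 tested members was 2.28 after rakicidin A and 2.23 after BE-43547A1, against -0.023 and -0.00026 over all features. Against DMSO the ranges of CPM did not overlap for 9 of 9 members with either compound, as held with rakicidin A for 67.5% of all features and with BE-43547A1 for 71.6%. The compounds share the DMSO libraries, so their changes are not independent of each other.

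**Figure D1:**
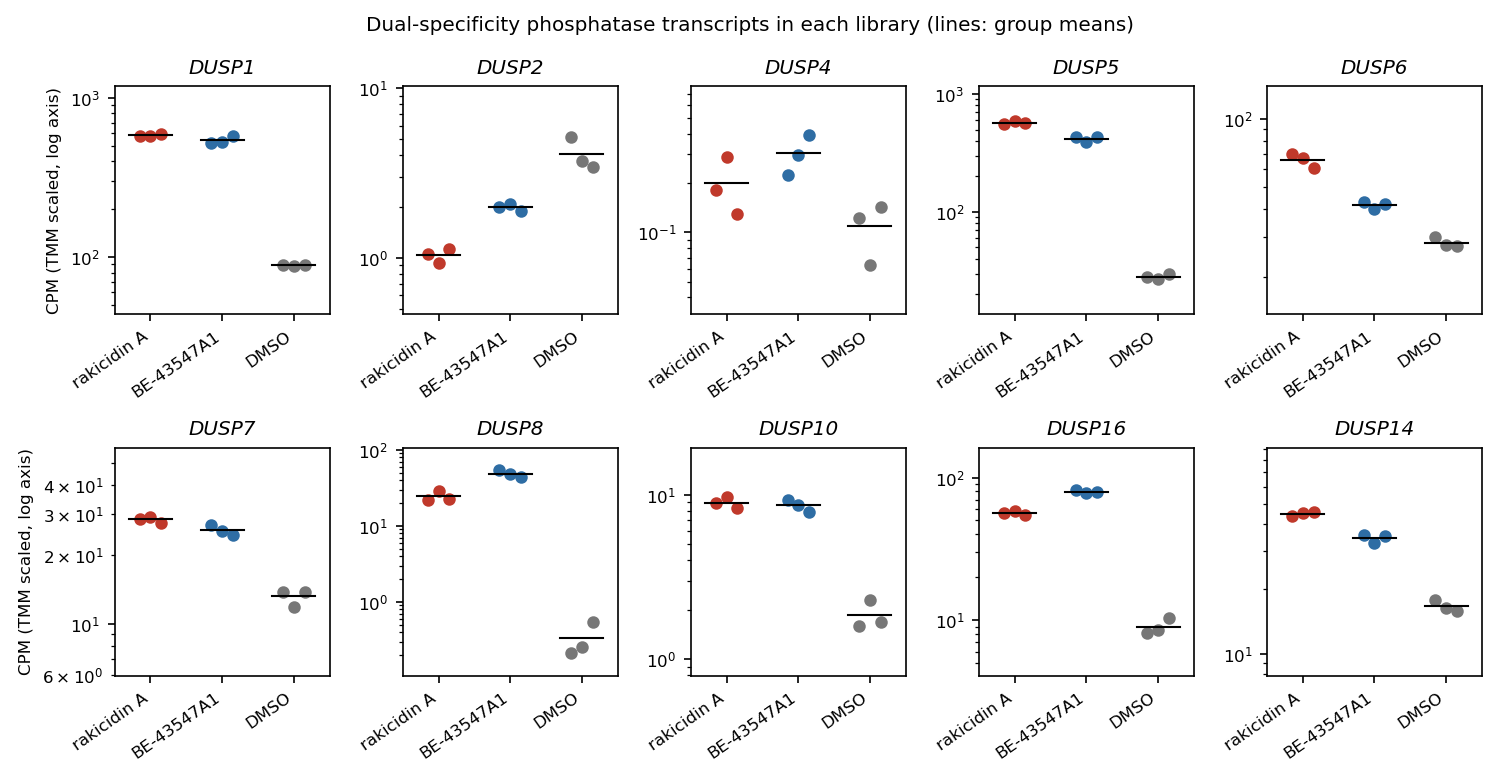
CPM of each of the 10 genes in the 9 libraries, on a log axis with its own range per gene; points are libraries and lines are group means (3 libraries each). In every panel except DUSP2 and DUSP4 the rakicidin A and BE-43547A1 points lie above the DMSO points without overlap, and for DUSP2 they lie below.

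The 250 bases before the transcription start of 4 members are printed here. Among the 8 members with a promoter window, DUSP1 and DUSP8 hold the full cyclic AMP response element, the palindrome TGACGTCA bound by CREB and ATF factors. DUSP16, which rose, and DUSP2, which fell, are printed as members without a match. DUSP6, DUSP7, DUSP10 and DUSP14 also rose without a match. A link between the element and the changes was not tested. Sequences are from RefSeq on GRCh38.p14, all on the minus strand and read 5′ to 3′ toward the gene: DUSP1 at chr5:172771196-172771445, DUSP8 at chr11:1572272-1572521, DUSP16 at chr12:12562864-12563113 and DUSP2 at chr2:96145441-96145690. Capitals mark TGACGTCA and its core TGACG on either strand.
DUSP1: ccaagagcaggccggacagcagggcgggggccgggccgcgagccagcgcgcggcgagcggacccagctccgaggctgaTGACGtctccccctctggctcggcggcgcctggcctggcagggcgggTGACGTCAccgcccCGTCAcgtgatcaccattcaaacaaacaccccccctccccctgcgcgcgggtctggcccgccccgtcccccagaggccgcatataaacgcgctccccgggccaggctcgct
DUSP8: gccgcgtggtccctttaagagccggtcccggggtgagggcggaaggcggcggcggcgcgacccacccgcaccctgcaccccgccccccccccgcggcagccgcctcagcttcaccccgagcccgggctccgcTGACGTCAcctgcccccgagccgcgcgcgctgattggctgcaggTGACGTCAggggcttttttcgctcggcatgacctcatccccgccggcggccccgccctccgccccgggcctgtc
DUSP16: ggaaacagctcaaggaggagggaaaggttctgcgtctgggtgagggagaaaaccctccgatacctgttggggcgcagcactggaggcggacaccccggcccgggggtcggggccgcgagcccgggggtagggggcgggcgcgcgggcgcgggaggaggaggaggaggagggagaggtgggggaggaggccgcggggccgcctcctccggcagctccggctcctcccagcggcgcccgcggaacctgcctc
DUSP2: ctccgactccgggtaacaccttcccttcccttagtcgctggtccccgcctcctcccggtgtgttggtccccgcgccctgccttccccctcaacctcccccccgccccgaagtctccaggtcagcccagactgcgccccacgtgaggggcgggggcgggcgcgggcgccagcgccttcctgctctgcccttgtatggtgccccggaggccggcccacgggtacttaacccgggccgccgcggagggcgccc

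DUSP8 held 2 full elements, at 118 to 111 and 74 to 67 bases before the start, and DUSP1 held 1, at 125 to 118 bases. Each full element contains the core once on each strand, so the 4 cores of DUSP8 all lie within its full elements, and of the 4 cores of DUSP1 those at 172 to 168 and 111 to 107 bases lie outside it. The full element was present in 578 of 35116 promoter windows of the same length (1.65%), and the core in 21.2%. The AP-1 site TGANTCA (6.57% of windows) and the amino acid response sequence TGATGNAA (3.14% of windows), searched on both strands, matched none of the 9 windows of the members. RefSeq windows were at hand for 8 of the 10 members, 2 of them for DUSP10, and the other 6 of these members, DUSP2, DUSP6, DUSP7, DUSP10, DUSP14 and DUSP16, had no match to any of the 4 sequences. A match is a string of letters and no evidence of binding. No window was given for DUSP4 and DUSP5.

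Among the broadly acting nuclear enzymes, DUSP1, the archetype of the family and an early response gene, on chromosome 5, had 575, 574 and 594 CPM after rakicidin A, 524, 526 and 578 CPM after BE-43547A1 and 89.4, 87.5 and 89.0 CPM with DMSO. Every treated library lay far above every DMSO library, and the ranges of the compounds overlapped. The change was 6.55-fold after rakicidin A (95% interval 6.02 to 7.13; edgeR adjusted p = 1.80e-17) and 6.13-fold after BE-43547A1 (5.63 to 6.66; adjusted p = 2.63e-17). DUSP2, an enzyme first known from activated lymphocytes, on chromosome 2, moved the other way. It had 1.06, 0.927 and 1.12 CPM after rakicidin A, 1.98, 2.08 and 1.88 CPM after BE-43547A1 and 5.14, 3.70 and 3.41 CPM with DMSO. These values rest on 26 to 29 counts per library after rakicidin A, 72 to 88 after BE-43547A1 and 117 to 168 with DMSO. The 3 groups did not overlap, with rakicidin A lowest and DMSO highest. DUSP2 fell by 1.99 ± 0.19 on the log2 scale after rakicidin A (adjusted p = 4.15e-08) and by 1.04 ± 0.16 after BE-43547A1 (adjusted p = 1.60e-05). DUSP4, a close relative of DUSP1 and DUSP2 on chromosome 8, was near the limit of detection, with 5, 9 and 3 counts after rakicidin A, 10, 12 and 15 counts after BE-43547A1 and 4, 2 and 5 counts with DMSO. At this depth 3 counts correspond to 0.0675 to 0.129 CPM, and such counts carry at least their counting error. Without the filter on low counts its log2 fold change was 0.87 after rakicidin A (edgeR adjusted p = 0.407) and 1.44 after BE-43547A1 (adjusted p = 0.0247), and DESeq2 gave 0.91 (adjusted p = 0.385) and 1.47 (adjusted p = 0.0914).

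The ERK phosphatases rose by very different amounts. DUSP5, a nuclear enzyme induced by ERK itself, on chromosome 10, had 553, 585 and 565 CPM after rakicidin A, 429, 391 and 433 CPM after BE-43547A1 and 28.2, 27.1 and 29.5 CPM with DMSO. The 3 groups were fully separate, with rakicidin A highest and DMSO far below both compounds. The change was 20.1-fold after rakicidin A (18.2 to 22.1; edgeR adjusted p = 1.92e-19) and 14.8-fold after BE-43547A1 (13.4 to 16.2; adjusted p = 6.99e-19). DUSP6, the cytoplasmic phosphatase whose loss is known from pancreatic carcinoma, on chromosome 12, had 69.5, 67.2 and 60.4 CPM after rakicidin A, 43.0, 39.8 and 42.1 CPM after BE-43547A1 and 30.0, 27.7 and 27.5 CPM with DMSO. Its groups were also separate, but its changes were small beside those of DUSP5, at 1.21 ± 0.07 on the log2 scale after rakicidin A (adjusted p = 1.26e-11) and 0.55 ± 0.07 after BE-43547A1 (adjusted p = 6.91e-07). DUSP7, its close relative on chromosome 3, had 28.7, 29.2 and 27.5 CPM after rakicidin A, 26.8, 25.3 and 24.3 CPM after BE-43547A1 and 13.8, 11.9 and 13.8 CPM with DMSO. DUSP7 rose in both, by 1.11 ± 0.08 on the log2 scale after rakicidin A (adjusted p = 3.56e-10) and 0.95 ± 0.08 after BE-43547A1 (adjusted p = 2.51e-09).

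The JNK and p38 phosphatases all rose with both compounds. DUSP8, known chiefly from brain and heart, on chromosome 11, had 22.1, 28.6 and 22.8 CPM after rakicidin A (608, 895 and 531 counts) and 53.7, 48.8 and 44.1 CPM after BE-43547A1 (2388, 1974 and 1685 counts). With DMSO it was almost absent, at 0.214, 0.253 and 0.540 CPM (7, 8 and 19 counts). The groups were fully separate, and BE-43547A1 gave the higher level. The change was 71.3-fold after rakicidin A (53.7 to 94.6; edgeR adjusted p = 3.14e-15) and 141.7-fold after BE-43547A1 (108.6 to 185.0; adjusted p = 2.23e-16). These folds rest on 34 DMSO counts in all. Without DMSO replicate 3, the library with 19 counts, the log2 fold changes were 6.70 after rakicidin A and 7.68 after BE-43547A1, against 6.16 and 7.15 with it. DUSP16, a large enzyme that acts on JNK, on chromosome 12, had 56.8, 58.7 and 54.7 CPM after rakicidin A, 81.2, 78.2 and 78.6 CPM after BE-43547A1 and 8.16, 8.59 and 10.3 CPM with DMSO. It too was highest after BE-43547A1 with no overlap of the 3 groups, and rose by 2.65 ± 0.08 on the log2 scale after rakicidin A (adjusted p = 1.28e-15) and 3.13 ± 0.08 after BE-43547A1 (adjusted p = 1.46e-16). DUSP10, which acts on JNK and p38, on chromosome 1, had 8.88, 9.72 and 8.33 CPM after rakicidin A, 9.36, 8.72 and 7.90 CPM after BE-43547A1 and 1.59, 2.31 and 1.68 CPM with DMSO. The compounds overlapped, and both lay above DMSO. DUSP10 rose by 2.28 ± 0.14 after rakicidin A (adjusted p = 5.28e-11) and 2.23 ± 0.14 after BE-43547A1 (adjusted p = 5.31e-11).

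The atypical member DUSP14, on chromosome 17, had 44.0, 45.2 and 45.7 CPM after rakicidin A, 35.6, 33.0 and 35.3 CPM after BE-43547A1 and 17.8, 16.4 and 15.8 CPM with DMSO. Its 3 groups were separate, with rakicidin A highest. DUSP14 rose by 1.43 ± 0.07 on the log2 scale after rakicidin A (edgeR adjusted p = 1.16e-12) and 1.05 ± 0.07 after BE-43547A1 (adjusted p = 9.47e-11). By size of the log2 fold change among the 22353 features tested, counted from the highest, DUSP8 stood at place 20, DUSP5 at 107, DUSP1 at 526, DUSP16 at 556 and DUSP10 at 820 after rakicidin A. After BE-43547A1 DUSP8 stood at place 40, DUSP5 at 377, DUSP16 at 658, DUSP1 at 929 and DUSP10 at 1260. DUSP14, DUSP6 and DUSP7 lay lower, at places 2028 to 2874 with rakicidin A and 3698 to 6282 with BE-43547A1, and DUSP2 at 21453 after rakicidin A and 19364 after BE-43547A1.

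**Figure D2:**
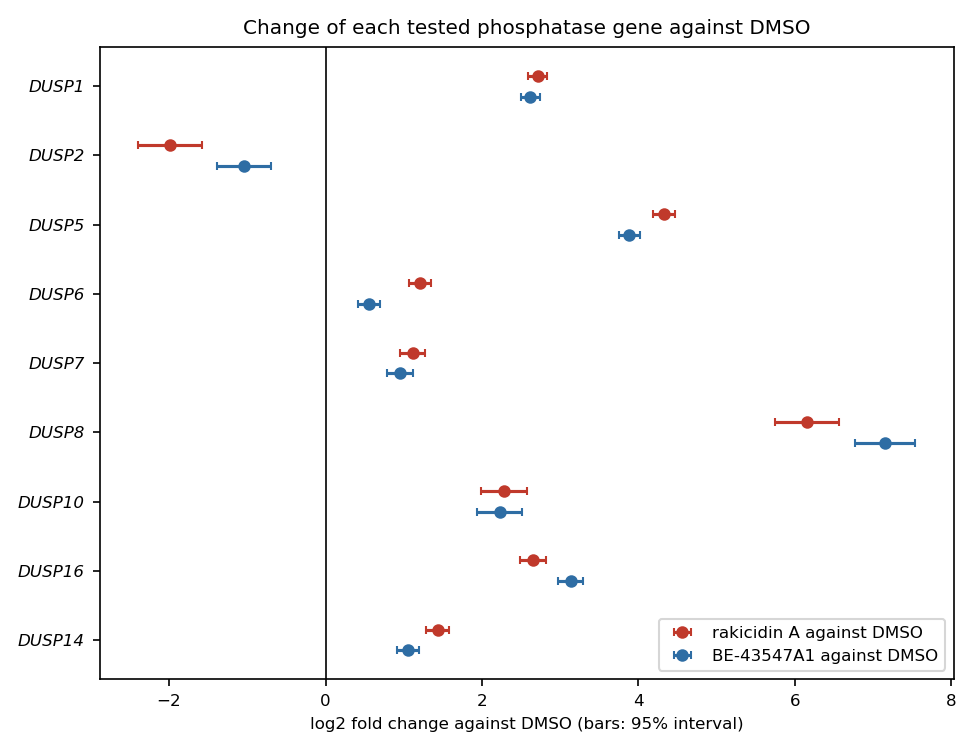
Log2 fold change of the 9 tested genes after rakicidin A and after BE-43547A1, each against DMSO; points are edgeR estimates and bars their 95% intervals. DUSP8 lies farthest to the right (6.16 and 7.15) and DUSP2 is the only tested gene to the left of 0 (-1.99 and -1.04).

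Set against each other, the compounds differed in 6 of the 9 tested members. Relative to BE-43547A1, DUSP5, DUSP6 and DUSP14 were higher after rakicidin A, and DUSP2, DUSP8 and DUSP16 were lower. Among all features, 46.6% passed in this comparison (24.1% higher and 22.5% lower). The ranges of CPM did not overlap for 7 of 9 members and for 57.6% of all features. No member differed by 1 or more on the log2 scale, where 2.16% of features were that much higher and 7.53% that much lower. DUSP2 (-1.07) and DUSP8 (-1.11) did with total counts alone. The largest differences among the members were those of DUSP8 (-0.99 ± 0.10, edgeR adjusted p = 3.85e-07) and DUSP2 (-0.95 ± 0.21, adjusted p = 0.0010). DUSP6 differed by 0.66 ± 0.07 (adjusted p = 1.99e-07), DUSP16 by -0.48 ± 0.07 (adjusted p = 1.11e-05), DUSP5 by 0.44 ± 0.06 (adjusted p = 4.13e-06) and DUSP14 by 0.38 ± 0.06 (adjusted p = 9.03e-05). By substrate, the ERK phosphatases that passed, DUSP5 and DUSP6, were higher after rakicidin A, and the JNK and p38 phosphatases that passed, DUSP8 and DUSP16, were lower. DUSP7 and DUSP10 did not pass, nor did the ERK phosphatase DUSP9 outside the members (-0.15 ± 0.16, adjusted p = 0.49). Output genes of ERK signalling outside the family mostly stood in the other order from DUSP5 and DUSP6. Of 8 tested, 1 was higher after rakicidin A (ETV5) and 5 were lower (SPRY2, SPRY4, CCND1, EPHA2 and EPHA4), with a median log2 difference of -0.21.

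DUSP1, DUSP7 and DUSP10 did not pass in this comparison, which does not show that the compounds act alike on them. The 95% interval of the log2 difference was -0.016 to 0.21 for DUSP1 (estimate 0.097, edgeR adjusted p = 0.15), 0.0065 to 0.31 for DUSP7 (0.16, adjusted p = 0.0817) and -0.18 to 0.29 for DUSP10 (0.055, adjusted p = 0.725). The DUSP7 ranges did not overlap, at 27.5 to 29.2 CPM after rakicidin A and 24.3 to 26.8 CPM after BE-43547A1, and DUSP7 passed without DMSO replicate 3 (0.17, adjusted p = 0.0372). DUSP1 passed without BE-43547A1 replicate 3 (0.15, adjusted p = 0.0378), the library with its highest level in that group. Scaled by total counts alone, the difference was -0.023 for DUSP1, -0.066 for DUSP10 and 0.040 for DUSP7, none of which passed.

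**Figure D3:**
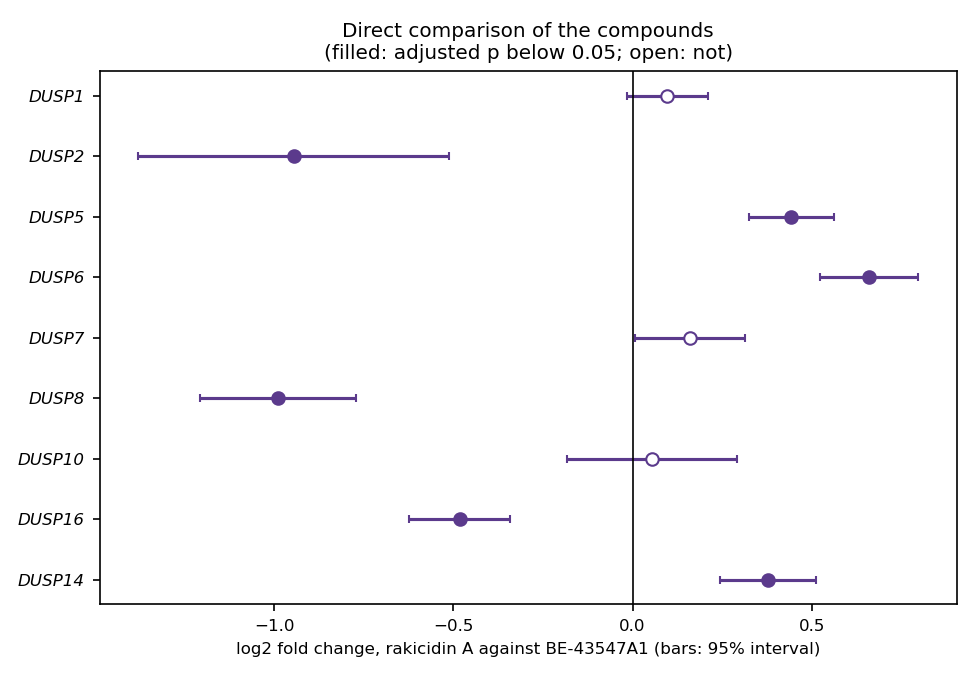
Log2 fold change of the 9 tested genes after rakicidin A against BE-43547A1; points are edgeR estimates, filled where the adjusted p was below 0.05, and bars their 95% intervals. DUSP5, DUSP6 and DUSP14 lie to the right of 0, DUSP2, DUSP8 and DUSP16 to the left, and DUSP1, DUSP7 and DUSP10 are open.

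To compare levels between genes, CPM was divided by the merged exon length of each gene in kb (1932 to 7257 bases in GENCODE v29). Summed over the 10 genes, this level was 552 to 566 CPM per kb after rakicidin A, 465 to 507 after BE-43547A1 and 72.6 to 75.8 with DMSO. The groups did not overlap, and DUSP1 and DUSP5 made up most of the sum. DUSP1 held 51.3 ± 0.984% of it after rakicidin A, 55.5 ± 1.43% after BE-43547A1 and 59.1 ± 0.661% with DMSO (mean ± SD, n = 3 libraries). DUSP5 held 38.7 ± 0.726% after rakicidin A, 33.0 ± 0.958% after BE-43547A1 and 14.6 ± 0.534% with DMSO. Within a library, where scaling cancels, the level of DUSP5 per kb was 0.735 to 0.788 of that of DUSP1 after rakicidin A, 0.573 to 0.632 after BE-43547A1 and 0.239 to 0.256 with DMSO. DUSP14 held 3.21 ± 0.0277% after rakicidin A, 2.86 ± 0.0852% after BE-43547A1 and 8.98 ± 0.462% with DMSO, and DUSP6 held 2.53 ± 0.206% after rakicidin A, 1.86 ± 0.0660% after BE-43547A1 and 8.26 ± 0.281% with DMSO. The shares of these genes were lower with a compound although their CPM was higher.

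**Figure D4:**
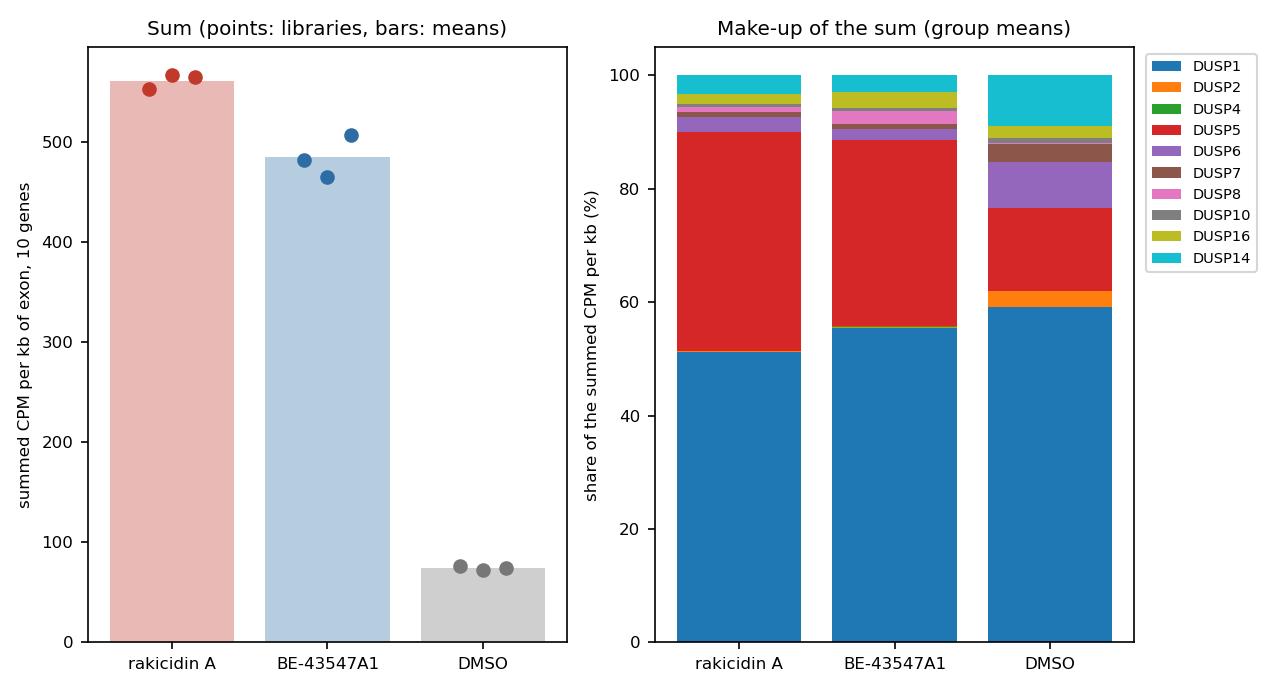
Left, summed CPM per kb of exon of the 10 genes, with points for libraries and bars for group means. Right, the share of each gene in the sum of its library, in percent, averaged over the libraries of a group. The treated sums lie at 465 to 566 against 72.6 to 75.8 with DMSO, and the DUSP5 part of the bar is 38.7% after rakicidin A, 33.0% after BE-43547A1 and 14.6% with DMSO.

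In order of level per kb, the members ran DUSP1, DUSP5, DUSP14, DUSP6, DUSP16, DUSP8, DUSP7, DUSP10, DUSP2 and DUSP4 after rakicidin A, where the ranges of DUSP8 and DUSP7 overlapped. After BE-43547A1 DUSP1 and DUSP5 again led, followed by DUSP16 and DUSP14, which overlapped, and then by DUSP8, DUSP6, DUSP7, DUSP10, DUSP2 and DUSP4. With DMSO the order was DUSP1, DUSP5, DUSP14, DUSP6, DUSP7, DUSP2, DUSP16, DUSP10, DUSP8 and DUSP4. There DUSP14 overlapped DUSP6, and DUSP2 overlapped both DUSP7 and DUSP16. DUSP8 averaged 5.31 CPM per kb after rakicidin A, 10.6 after BE-43547A1 and 0.0727 with DMSO, while DUSP2 averaged 0.535 after rakicidin A, 1.02 after BE-43547A1 and 2.11 with DMSO. By substrate, the ERK phosphatases DUSP5, DUSP6 and DUSP7 summed to 236 ± 6.38 CPM per kb after rakicidin A, 173 ± 9.25 after BE-43547A1 and 19.27 ± 0.727 with DMSO. The JNK and p38 phosphatases DUSP8, DUSP10 and DUSP16 summed to 18.31 ± 1.30 CPM per kb after rakicidin A, 27.4 ± 1.53 after BE-43547A1 and 2.29 ± 0.246 with DMSO. The broad enzymes DUSP1, DUSP2 and DUSP4 summed to 288 ± 5.63 CPM per kb after rakicidin A, 270.0 ± 15.2 after BE-43547A1 and 46.0 ± 0.862 with DMSO. Single genes carried the larger sums: DUSP5 alone had 217 CPM per kb after rakicidin A, 159.7 after BE-43547A1 and 10.8 with DMSO, and DUSP1 alone had 288 after rakicidin A, 269 after BE-43547A1 and 43.9 with DMSO. The ERK and the JNK and p38 sums stood in opposite order between the compounds. After rakicidin A the ERK sum was higher (231 to 244 against 163 to 179 CPM per kb after BE-43547A1). The JNK and p38 sum was lower after rakicidin A (17.4 to 19.8 against 26.0 to 29.03). DUSP8 and DUSP16 carried that order, DUSP16 averaging 9.92 CPM per kb after rakicidin A and 13.9 after BE-43547A1. DUSP10 averaged 3.08 after rakicidin A and 2.97 after BE-43547A1, with overlapping ranges. The ERK phosphatase DUSP9, which is not a member, is not in the ERK sum.

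Some members share a locus or sequence with another gene, and the strand setting of the counting is not given in the sources used here, so reads of overlapping genes may not have been kept apart. Reads set aside as ambiguous between features were 2.65 to 2.94% of all counts. In GENCODE v29 DUSP8 overlaps the antisense transcript KRTAP5-AS1, which had 30, 43 and 20 counts after rakicidin A, 304, 303 and 240 after BE-43547A1 and 0, 0 and 3 with DMSO. Like DUSP8 it was lower after rakicidin A than after BE-43547A1. Its rakicidin A level relative to BE-43547A1 was -2.60 ± 0.19 on the log2 scale (edgeR adjusted p = 7.32e-09). DUSP8P5, a pseudogene of DUSP8, had 29 to 49 counts after rakicidin A, 37 to 44 after BE-43547A1 and 16 to 23 with DMSO. It rose after rakicidin A (1.23 ± 0.24, adjusted p = 0.00018) and after BE-43547A1 (0.75 ± 0.24, adjusted p = 0.00881). The rise after BE-43547A1 did not pass with total counts alone (adjusted p = 0.0585) or with DESeq2 (adjusted p = 0.0519). Nor did it pass with all libraries thinned to the smallest total (0.49, adjusted p = 0.107). Between the compounds DUSP8P5 did not pass (0.48 ± 0.21, adjusted p = 0.0721), but it did after that thinning (0.72, adjusted p = 0.02). The 4 other DUSP8 pseudogenes in the table, and DUSP5P2, had no counts. DUSP5P1, a pseudogene of DUSP5, moved against its parent, with 5 to 17 counts after rakicidin A, 6 to 18 after BE-43547A1 and 60 to 86 with DMSO. DUSP5P1 fell by 2.51 ± 0.33 on the log2 scale after rakicidin A (adjusted p = 2.14e-06) and by 2.94 ± 0.32 after BE-43547A1 (adjusted p = 1.46e-07). The antisense partner of DUSP1 had 0 to 6 counts per library, and the overlap partner of DUSP16 had 1 count in 1 DMSO library and 0 in the others. An antisense gene annotated over DUSP6 was not among the counted features, so its reads could not be examined.

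By likeness of pattern, measured as the Euclidean distance of log2 CPM centred on DMSO over the 9 libraries among 11666 genes with a mean of at least 2 CPM over all libraries (a gene low in 1 group could enter through the others), the nearest genes were found for the members with a log2 fold change of 1 or more in size with both compounds. Nearest to DUSP8 was ATF3, a stress-induced transcription factor, at a distance of 1.41, followed by the chemokine CCL20 at 1.96. ATF3 averaged 944 CPM after rakicidin A, 1009 after BE-43547A1 and 11.7 with DMSO, and CCL20 averaged 17.1 CPM after rakicidin A, 39.2 after BE-43547A1 and 0.357 with DMSO. These distances were larger than those of the nearest genes of the other members. Nearest to DUSP1 was ERN1, a sensor kinase of the unfolded protein response (0.226). SGK1, a kinase of salt and stress responses (0.241), and LAMB3, a laminin chain (0.256), came next. Nearest to DUSP5 were ABL2, a tyrosine kinase (0.263), HBEGF, a growth factor of the EGF family (0.397), and ZNF165 (0.457). ABL2 averaged 1853 CPM after rakicidin A, 1498 after BE-43547A1 and 100.1 with DMSO. Nearest to DUSP16 were BCL6, a transcriptional repressor (0.225), RNF19B (0.255) and the cytokine LIF (0.282), and nearest to DUSP10 were RASSF1 (0.314), IQCG (0.417) and BIRC3, an inhibitor of apoptosis (0.420). DUSP14 lay nearest to TARS, a threonyl-tRNA synthetase (0.149), TMED2 (0.154) and AVL9 (0.161). DUSP2, which fell, lay nearest to ID2, an inhibitor of DNA binding (0.502), FAM102B (0.580) and TSTD3 (0.651).

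The wider pathway, with its kinases, other phosphatases and output genes, moved in both directions. Over 7 lists, 66 of 76 matched genes were tested, and after rakicidin A 31 rose and 20 fell (47% and 30.3%, beside 31.9% and 32.7% of all features). After BE-43547A1 28 rose and 22 fell (42.4% and 33.3%, beside 35.3% and 35.1%), and between the compounds 17 were higher and 20 lower after rakicidin A (25.8% and 30.3%, beside 24.1% and 22.5%). These splits moved with the scaling. With total counts alone they were 16 and 34, 19 and 34, and 12 and 30, as the median log2 fold change of all features moved to -0.38, -0.24 and -0.14. Of the 9 tested MAP kinases, 2 rose and 4 fell after rakicidin A (median -0.31) and 3 rose and 3 fell after BE-43547A1 (median 0.17). With total counts alone, 2 rose and 7 fell, and 1 rose and 4 fell. In what follows a pair of values in parentheses is the log2 fold change after rakicidin A and then that after BE-43547A1, each against DMSO. MAPK8, which encodes JNK1, rose (1.38 ± 0.07 on the log2 scale after rakicidin A, edgeR adjusted p = 2.75e-12, and 0.79 ± 0.07 after BE-43547A1, adjusted p = 6.97e-09). MAPK12, a p38 isoform (-1.21 and -0.95), and MAPK9, which encodes JNK2 (-0.58 and -0.49), fell with both compounds.

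Of the 7 MAP kinase kinases, 4 rose and 2 fell with either compound (medians 0.42 and 0.61), with MAP2K6 lower each time. With total counts alone, 3 rose and 3 fell after rakicidin A, and 4 rose and 3 fell after BE-43547A1. MAP2K3, an activator of p38, averaged 31.5 ± 2.35 CPM after rakicidin A, 52.0 ± 4.41 after BE-43547A1 and 5.31 ± 0.428 with DMSO (mean ± SD, n = 3). It rose by 2.56 ± 0.09 on the log2 scale after rakicidin A (edgeR adjusted p = 2.33e-14) and by 3.29 ± 0.09 after BE-43547A1 (adjusted p = 6.62e-16). MAP2K1, an activator of ERK (1.40 and 1.07), and MAP2K7, an activator of JNK (0.81 and 0.86), rose too. Of the 22 MAP kinase kinase kinases, 11 rose and 5 fell after rakicidin A (median 0.14) and 9 rose and 8 fell after BE-43547A1 (median -0.011), against 3 and 11, and 5 and 13, with total counts alone. BRAF (1.21 and 1.29) and MAP3K10 (1.13 and 1.32) rose, and MAP3K5, a stress-activated kinase known as ASK1, fell (-1.23 and -1.10). Of 10 tested kinases that MAP kinases activate, 5 rose and 2 fell with either compound (medians 0.16 and 0.12), against 2 and 5, and 2 and 3, with total counts alone. RPS6KA3, which encodes RSK2, rose (1.47 and 1.26), MAPKAPK2 rose (0.39 and 0.58), the change after rakicidin A being 0.034 with total counts alone (adjusted p = 0.712), and MKNK1 fell (-0.38 and -0.47).

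Of 8 output genes of ERK signalling outside the family, 6 rose and 2 fell after rakicidin A (median 0.68) and 6 rose and 1 fell after BE-43547A1 (median 1.10). With total counts alone 5 rose and 2 fell, and 6 rose and 2 fell. SPRY2, a feedback inhibitor of receptor signalling, averaged 49.5 ± 3.02 CPM after rakicidin A, 58.0 ± 1.03 after BE-43547A1 and 15.8 ± 0.790 with DMSO, and rose by 1.65 ± 0.07 on the log2 scale after rakicidin A (edgeR adjusted p = 1.32e-13) and by 1.87 ± 0.07 after BE-43547A1 (adjusted p = 1.84e-14). PHLDA1 rose as well (1.13 and 1.30), while CCND1, which encodes the G1 cyclin D1, fell (-0.85 and -0.67). Of the 9 tested atypical dual-specificity phosphatases outside the 10, 3 rose and 4 fell after rakicidin A (median 0.080) and 1 rose and 5 fell after BE-43547A1 (median -0.25), against 1 and 5, and 1 and 8, with total counts alone. DUSP19 fell (-2.22 and -2.08), DUSP3 rose (0.46 and 0.42, but 0.11 after rakicidin A with total counts alone, adjusted p = 0.0983), and DUSP11, an RNA phosphatase, rose after rakicidin A (0.88 ± 0.07, adjusted p = 1.84e-09) and fell after BE-43547A1 (-0.25 ± 0.07, adjusted p = 0.00388), a difference of 1.12 ± 0.07 between the compounds (adjusted p = 7.53e-10). DUSP9, a cytoplasmic ERK phosphatase close to DUSP6 and DUSP7, averaged 2.15 ± 0.376 CPM after rakicidin A, 2.39 ± 0.175 after BE-43547A1 and 3.50 ± 0.350 with DMSO. It fell by 0.70 ± 0.16 on the log2 scale after rakicidin A (adjusted p = 0.000905) and by 0.55 ± 0.15 after BE-43547A1 (adjusted p = 0.0031), opposite to both relatives.

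**Figure D5:**
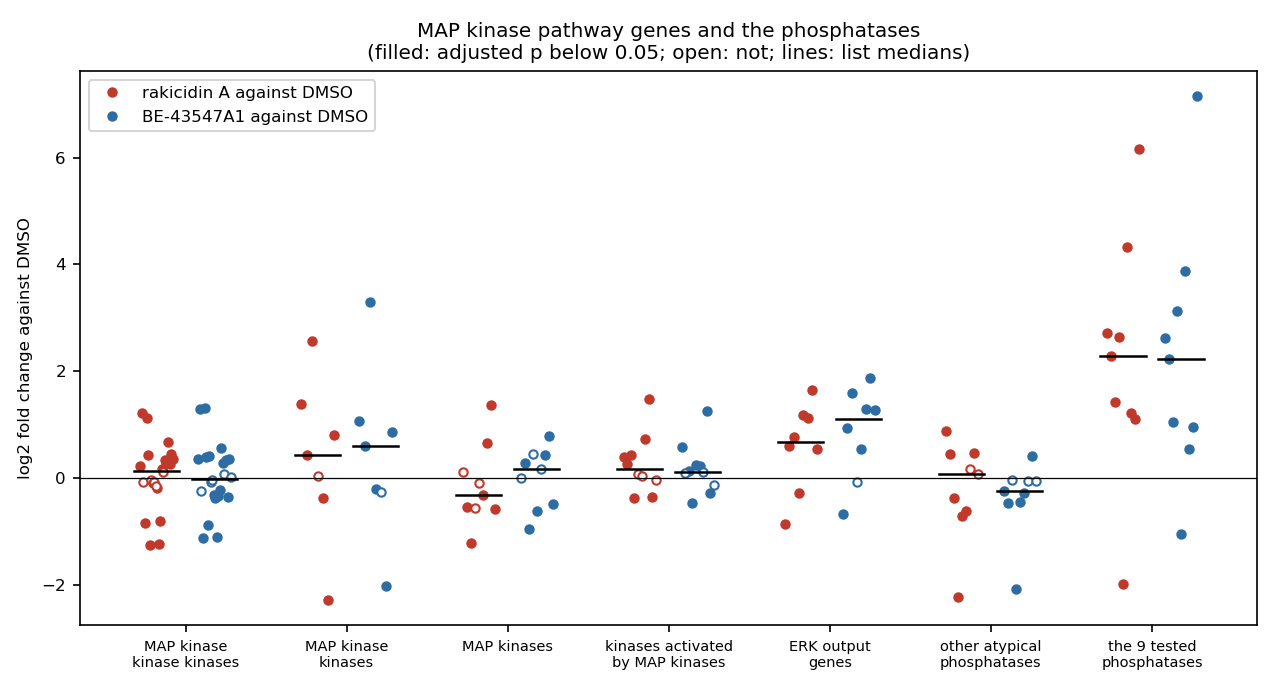
Log2 fold change against DMSO of each tested gene of 6 pathway lists and of the 9 tested phosphatases; red points are rakicidin A, blue points BE-43547A1, filled where the adjusted p was below 0.05, and lines are medians. The phosphatase medians (2.28 and 2.23) lie above those of every other list shown (-0.31 to 1.10). The list of other phosphatases of MAP kinases is not shown, as it had 2 tested genes, DUSP3 and DUSP9 (medians -0.12 and -0.065). Members and lists were chosen with earlier results of these data known, so the comparison of medians is descriptive.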

How the data were processed

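Total RNA of 9 libraries, 3 per group, was analysed from 1 deposited table. Per the submitters' processing notes, the authors used TopHat2 and HTSeq with the builds GRCh37 and hg19, and the deposited values are raw read counts per feature, not normalized. Rows that name no gene held 39.0 to 39.8% of all counts after rakicidin A, 42.7 to 43.0% after BE-43547A1 and 44.4 to 45.4% with DMSO, and were set aside. The strand setting is not given in the sources used here.

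Counts were tested in R 4.3.3 with edgeR 4.0.16: filterByExpr, TMM scaling (factors 0.890 to 0.898 after rakicidin A, 0.963 to 0.989 after BE-43547A1 and 1.14 to 1.15 with DMSO) and the quasi-likelihood test, fitted with a mean for each group over all 9 libraries (6 residual degrees of freedom). A feature passed at an adjusted p below 0.05. SE is the absolute log2 fold change divided by the root of F, with intervals at 95%. Log CPM used a prior count of 2. Limits from 3 counts cover counting error only. The test was run on simulated data with known folds first. The simulation changed few features, and only in the rakicidin A libraries, so it does not cover changes as wide as those found here. Plots used python 3.11.15 and matplotlib 3.10.9.

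The members and lists were chosen with earlier results of these data known. All members were named. From each list, up to 3 genes whose unadjusted p-values against DMSO had the lowest product over both compounds were named, and for each member that passed in both with a log2 fold change of at least 1 in size, the 3 genes with the nearest pattern (KRTAP2-3, the last of DUSP8, had 1 DMSO count and is given no value). The overlap partners and pseudogenes were chosen from the annotation. Exon lengths and overlaps are from GENCODE v29 (GRCh38), an annotation other than the authors'. The alternatives tried were scaling by total counts or by RLE, testing without the filter, the tools DESeq2 1.42.0 and limma-voom (limma 3.58.1), a fit to just the 6 libraries compared, a block for the replicate number, leaving out mitochondrial and ribosomal RNA features, thinning to 26203326 counts, requiring a log2 fold change of 1 or more (also under each other setting, added after seeing the data), and leaving out each library in turn.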

Additional observations from a re-analysis of the deposited data

How the results depend on the processing

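In the comparisons with DMSO, each of the 9 tested phosphatases kept its direction and its side of the threshold under all 18 refits (9 with 1 library left out), with log2 fold changes of 5.80 to 6.70 for DUSP8, 3.97 to 4.36 for DUSP5, 2.35 to 2.74 for DUSP1 and -2.34 to -1.78 for DUSP2 after rakicidin A, and 6.90 to 7.68, 3.65 to 3.95, 2.38 to 2.66 and -1.28 to -0.85 after BE-43547A1. The rakicidin A changes of DUSP6 (0.85 to 1.28) and DUSP7 (0.76 to 1.15) and their BE-43547A1 changes (0.31 to 0.60 and 0.72 to 1.00) were lowest with total counts alone. Between the compounds DUSP1 turned to -0.023 and DUSP10 to -0.066 with total counts alone, DUSP10 to -0.0018 without BE-43547A1 replicate 3 and -0.00097 without rakicidin A replicate 2, and DUSP5P1 to -0.18 without rakicidin A replicate 3 (with 1 library left out, DUSP10 ranged up to 0.11 and DUSP5P1 up to 0.78). None of these passed, and the cause was not tested; DUSP1 and DUSP10 lay near 0, and DUSP5P1 was imprecise (0.42 ± 0.45). DUSP7 passed between the compounds after thinning (0.19, adjusted p = 0.0497), with the 6 libraries alone (0.16, adjusted p = 0.0353) and without DMSO replicate 3, so that 7 members passed there, as they did without BE-43547A1 replicate 3. With a log2 fold change of at least 1, fewer features passed by construction: 6211, 7075 and 2167 over all features, and 0 of the members between the compounds. There 2 members reached that fold with total counts alone, 1 without the filter, and 0 to 1 with a library left out (DUSP8, without rakicidin A replicate 2 or BE-43547A1 replicate 3), in a check added after seeing the data. Over all features, total counts alone gave 4477 higher and 11392 lower after rakicidin A, 5951 and 10450 after BE-43547A1, and 3923 and 6868 between the compounds, against 7141 and 7314, 7898 and 7840, and 5387 and 5036 with TMM. With 1 library left out, the members passing were 9 and 9 against DMSO and 6 to 7 between the compounds.

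Same-numbered libraries of different groups showed no clear common deviation (correlations of -0.057 to 0.12 over 9 pairs, 1 of them over 0.1, against -0.097 to 0.092 for other pairs). The highest value was that of BE-43547A1 replicate 1 with DMSO replicate 1. With 3 libraries per group this check cannot decide whether same-numbered samples share an origin, which the labels do not state. With the replicate number as a block, 9, 9 and 6 members passed, and 14359, 15670 and 10347 features. Depth limits DUSP4, with 2 to 15 counts per library, and the DMSO level of DUSP8, with 7 to 19.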
